A study of Mus musculus with 8 samples.

Results

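This account covers 38 genes of the brain's blood vessels, measured in the hippocampus of male Muta Mouse animals, a transgenic strain that carries lambda-lacZ reporter copies. They were taken as a fixed list of symbols and fall into 7 transporters of the blood-brain barrier, 24 endothelial genes and 7 pericyte genes, out of 15108 named genes with a tested probe. The BaP group (4 mice) received the polycyclic aromatic hydrocarbon benzo[a]pyrene (BaP) in olive oil by oral gavage at 70 mg/kg bw per day on 3 days, and the control group (4 mice) received the vehicle alone. Mice were 9 weeks old, and the hippocampus was collected 24 hr after the last dose. RNA of each mouse was labeled with Cy5 and hybridized with a Cy3-labeled universal mouse reference RNA on 1 of 8 Agilent arrays of a single slide, without a dye swap. Values are log2 ratios of sample over reference, so a negative ratio means less signal than in the reference RNA and says nothing of the level against another gene.

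For 4 of the 8 arrays, the sample title and the source name give opposite groups. All 4 lie in the second row of the slide (mice 3 and 4 of both groups). The titles were used, and values from the mice with agreeing labels (mice 1 and 2 of each group) stand beside the results. By title, *Hbb-bs*, a beta-globin gene, differed by -2.02 (log2) in the row with agreeing labels and by -1.79 in the other row, and *Cldn5*, a tight junction gene, by -0.51 and -0.62. Over all mice grouped by source name, these differences were -0.11 and 0.05. The median Cy5 signal of an array was 108 to 174 over a background of 67 to 71, and precision is limited by how many arrays there are. Per the methods, the mice were kept in cages of their own, and litters are not named; p-values measure the spread between these 8 animals. With 4 mice against 4, an exact permutation p cannot go below 0.0286.

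The endothelial cells of brain capillaries form the blood-brain barrier: tight junctions seal the gaps between them, and transporters in their membranes carry nutrients in and foreign compounds out. Pericytes lie on the outer face of the capillary within its basement membrane and help to maintain that barrier. BaP is a ligand of the aryl hydrocarbon receptor (AHR), a transcription factor that is present in endothelial cells and binds DNA through a short core motif.

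That core motif, GCGTG, was searched on both strands in the RefSeq promoter windows of mouse assembly GRCm38.p6, which run from 250 bases before a transcript start to 50 bases after it. A window was found for 27 of the 38 genes, and 14 of them (51.85%) held the motif in at least 1 window, against 35.15% of 27025 genes with a window. Counted per window, 14 of 34 (41.18%) held it, against 32.39% of 32851. A match is a description of the letters and no evidence of binding. The windows below are those of the 3 genes with the motif that had the lowest p in the comparison of the groups. They lie at chr4:119108495-119108794 (*Slc2a1*), chr2:26586386-26586685 (*Egfl7*) and chr11:78498870-78499169 (*Vtn*), each on the plus strand and read 5′ to 3′, with the motif or its reverse complement CACGC in capitals.
Slc2a1: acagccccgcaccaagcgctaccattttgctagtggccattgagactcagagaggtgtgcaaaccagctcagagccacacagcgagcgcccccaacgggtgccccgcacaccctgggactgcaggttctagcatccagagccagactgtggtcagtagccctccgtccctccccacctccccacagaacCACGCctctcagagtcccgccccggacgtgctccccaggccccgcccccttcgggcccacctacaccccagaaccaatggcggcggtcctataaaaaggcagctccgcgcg
Egfl7: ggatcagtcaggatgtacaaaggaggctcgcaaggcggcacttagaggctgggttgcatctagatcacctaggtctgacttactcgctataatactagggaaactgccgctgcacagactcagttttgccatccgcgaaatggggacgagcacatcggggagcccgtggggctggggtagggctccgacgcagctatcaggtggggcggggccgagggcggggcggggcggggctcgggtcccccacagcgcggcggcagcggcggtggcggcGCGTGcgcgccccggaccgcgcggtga
Vtn: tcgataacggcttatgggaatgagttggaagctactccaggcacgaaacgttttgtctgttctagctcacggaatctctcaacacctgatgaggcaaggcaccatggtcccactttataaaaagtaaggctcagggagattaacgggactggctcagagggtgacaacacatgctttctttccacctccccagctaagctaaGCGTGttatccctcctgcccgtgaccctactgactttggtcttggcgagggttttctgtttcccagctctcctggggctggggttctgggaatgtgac
*Slc2a1* thus held 1 match, on the minus strand, whereas *Egfl7* and *Vtn* each held 1 on the plus strand. Of the 5 genes with the lowest p in the comparison of the groups, *Slco1a4*, *Ly6c1*, *Tek* and *Abcc9* had a window without these letters.

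Of the 38 genes, 37 were tested, and each of these 37 was well above background in Cy5 on all 8 arrays. *Erg*, an endothelial transcription factor, was well above background on 2 arrays and was not tested. When limma was fitted to 32624 probes with Benjamini-Hochberg adjustment, 0 of the 37 genes passed an adjusted p of 0.05 with a fold change of 1.5, where 3 of all named genes did (0.0199%). The lowest adjusted p among the 37 was 0.434. At an unadjusted p of 0.05, 5 of the 37 were higher in BaP-exposed mice and 0 were lower, where 5.07% of all named genes were higher and 4.38% lower. The 5 were *Slc2a1*, *Slco1a4*, *Ly6c1*, *Tek* and *Abcc9*. The groups did not overlap for 1 gene, *Slc2a1*, which was higher with BaP. Over all named genes, 2.72% were higher without overlap and 2.56% lower.

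The differences were small across the 37 genes. With BaP, 22 were higher and 15 lower, at a median log2 fold change of 0.08, against 0.00 over all named genes (7551 higher, 7557 lower). Fold changes ran from -0.26 to 0.58. For 28 of the 37, the SD between mice within the groups exceeded the difference between the groups. For 29, the 95% interval of the fold change lay inside 1.5-fold in both directions, so larger changes of these genes were outside the interval. In bulk tissue, fewer vessel cells and less RNA per cell cannot be told apart.

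**Figure D1:**
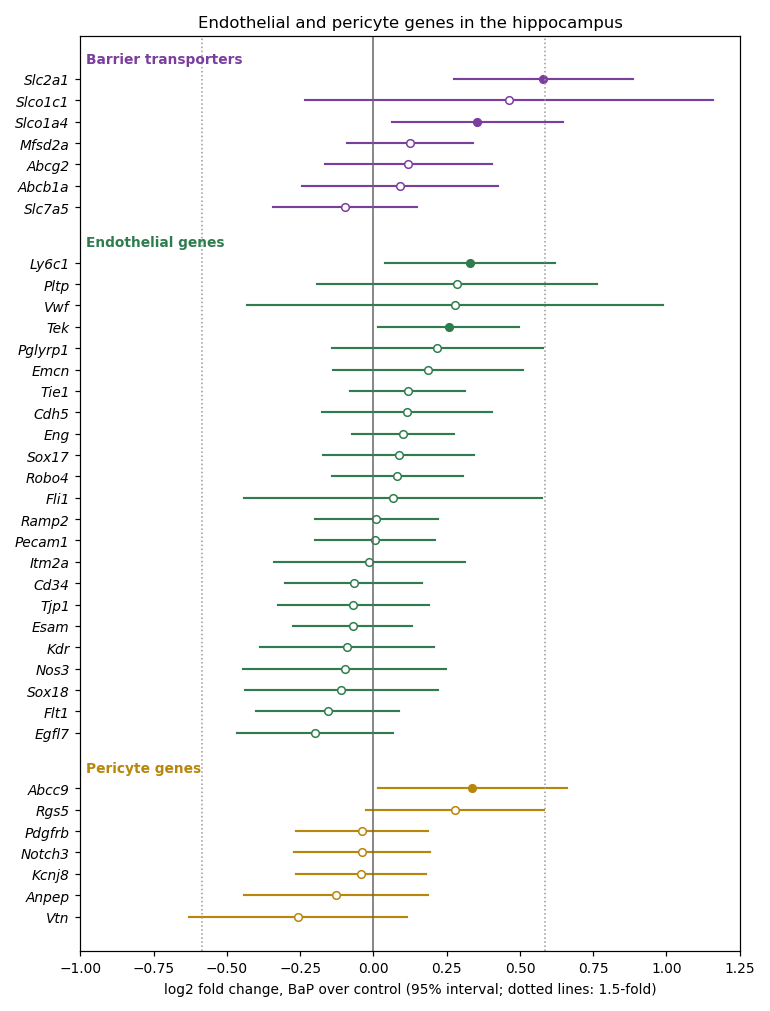
Log2 fold change of BaP over control for the 37 tested genes on the horizontal axis, with 95% intervals from limma, grouped into barrier transporters, endothelial genes and pericyte genes. Filled points are the 5 genes with an unadjusted p of 0.05 or less, all right of 0, and the dotted lines mark a fold change of 1.5.

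Of the 7 barrier transporters, 6 were higher after BaP and 1 was lower, and their median log2 fold change was 0.12 (0.09 to 0.24 with each mouse left out, the highest without BaP-exposed mouse 1). *Slc2a1* encodes GLUT1, the glucose transporter through which the brain endothelium takes up most of its glucose from blood. Its log2 ratio was -1.62, -1.93, -1.36 and -1.95 in control mice 1 to 4, and -1.19, -1.14, -0.94 and -1.27 in BaP-exposed mice 1 to 4. Each BaP-exposed mouse lay above every control mouse, with the highest control (mouse 3) just below the lowest BaP-exposed animal (mouse 4). The log2 fold change was 0.58 (SE 0.14, a 1.49-fold difference), with an adjusted p of 0.434 in limma and an exact 2-sided permutation p of 0.0286.

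The Cy5 signal of *Slc2a1* on its own, without the reference, also separated the groups. On the log2 scale after quantile normalization it was 12.07 to 12.60 in control mice and 12.65 to 13.01 in BaP-exposed mice. The log2 ratio of *Slc2a1* differed by 0.61 (SE 0.15) in the mice with agreeing labels and 0.55 (SE 0.23) in the other slide row. The groups did not overlap in either row, each of 2 mice against 2. Their separation over all mice made this certain, so the lack of overlap within the rows gives no further support. This difference in log2 ratio, when single mice were left out, stayed between 0.50 and 0.70. Grouped by source name it was 0.03.

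*Slco1a4* encodes an organic anion transporter of the barrier (Oatp1a4) that carries steroid conjugates and drugs. The log2 ratios were 2.89, 2.93, 3.02 and 2.70 in control mice 1 to 4 and 3.06, 3.32, 3.57 and 3.01 in the BaP group. BaP-exposed mice 1, 2 and 3 exceeded all controls, and mouse 4 fell just below control mouse 3. This gave a log2 fold change of 0.36 (SE 0.13), with an adjusted p of 0.523 in limma and an exact permutation p of 0.0571.

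*Slco1c1*, the thyroxine transporter of the barrier (Oatp1c1), differed between its 2 probes. On the brighter probe the log2 ratio was 4.64, 4.47, 4.81 and 4.01 in control mice and 4.11, 5.32, 5.72 and 4.63 in BaP-exposed mice 1 to 4. BaP-exposed mice 2 and 3 stood above all others, while BaP-exposed mouse 1 was next to the lowest of the 8. The log2 fold change there was 0.46 (SE 0.31), and on the dimmer probe it was -0.05 (SE 0.11), with exact permutation p values of 0.314 and 0.800.

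The other transporters differed by less. *Mfsd2a*, which carries lysophospholipid-bound docosahexaenoic acid, had a log2 fold change of 0.12 (SE 0.10). *Abcb1a* (P-glycoprotein) and *Abcg2* (breast cancer resistance protein), the main drug efflux pumps of the barrier, had 0.09 (SE 0.15) and 0.12 (SE 0.13). *Slc7a5*, the large neutral amino acid transporter LAT1, was at -0.10 (SE 0.11) on its brighter probe and 0.18 (SE 0.34) on the dimmer one. For *Abcb1a* and *Abcg2* the 95% intervals ran from -0.24 to 0.42 and from -0.17 to 0.40, so neither a modest rise nor a small fall is outside them.

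**Figure D2:**
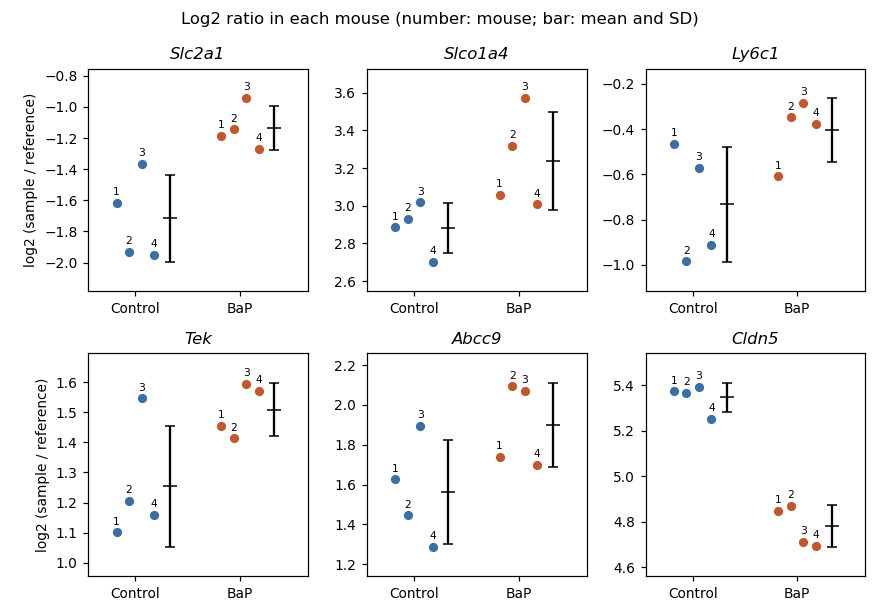
Log2 ratio of sample over reference in each mouse, control on the left and BaP on the right of each panel, for the 5 genes with an unadjusted p of 0.05 or less and for *Cldn5*. Numbers name the mice and bars give mean and SD (n = 4); the groups are apart for *Slc2a1* and *Cldn5* and overlap for the others.

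The 23 tested endothelial genes were split 14 higher to 9 lower, with a median log2 fold change of 0.07. This median was -0.01 without control mouse 4 and up to 0.09 with another mouse left out. Of the surface and secreted proteins, *Ly6c1* encodes a GPI-anchored antigen found on brain endothelium in mice. The brighter of its 2 probes read -0.47, -0.98, -0.57 and -0.91 in control mice 1 to 4 and -0.61, -0.35, -0.28 and -0.38 in BaP-exposed mice 1 to 4. BaP-exposed mice 2, 3 and 4 lay above the controls, and mouse 1 lay among them. The difference came to 0.33 on the log2 scale (SE 0.13), with an adjusted p of 0.538 in limma and an exact permutation p of 0.0857.

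A second, dimmer probe of *Ly6c1* read -0.18, -0.36, -0.14 and -0.22 in control mice and 0.03, 0.22, 0.01 and 0.25 in BaP-exposed mice 1 to 4. On this probe all 4 BaP-exposed mice lay above the controls. It gave 0.35 (SE 0.09), with an adjusted p of 0.479 in limma and an exact permutation p of 0.0286. *Ly6c1* has a near-identical neighbor, *Ly6c2*, whose RNA these probes may also capture, so the values are uncertain for *Ly6c1* alone.

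Among the receptors, *Tek* encodes TIE2, the endothelial receptor of the angiopoietins, which steadies resting vessels. Its log2 ratio was 1.10, 1.21, 1.55 and 1.16 in control mice 1 to 4 and 1.46, 1.41, 1.60 and 1.57 in BaP-exposed mice 1 to 4. Control mouse 3 lay within the range of the BaP group and the other controls below it. On average *Tek* was higher by 0.26 (SE 0.11), with an adjusted p of 0.553 in limma and an exact permutation p of 0.0857. In the scanner's own ratio *Tek* differed by 0.80 (SE 0.29) without overlap, while *Slco1a4* (0.39, SE 0.33) and *Abcc9* (0.50, SE 0.48) no longer reached an unadjusted p of 0.05. *Tie1*, its partner receptor, had a log2 fold change of 0.12 (SE 0.09).

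The remaining receptors were close to 0. The VEGF receptors *Flt1* and *Kdr* had log2 fold changes of -0.16 (SE 0.11) and -0.09 (SE 0.13). *Kdr* had no value in control mouse 1, whose spot was marked as an outlier. *Eng*, the endothelial co-receptor of the TGF-beta family, was at 0.10 (SE 0.08), *Robo4*, a guidance receptor of vessels, at 0.08 (SE 0.10), and *Ramp2*, a partner of the adrenomedullin receptor, at 0.01 (SE 0.10). All 7 receptors had 95% intervals within 1.5-fold.

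Of the 4 junction and adhesion genes, 2 were higher and 2 lower. *Cdh5* (VE-cadherin, the adherens junction protein of endothelium) had a log2 fold change of 0.11 (SE 0.13), and *Pecam1* (CD31, an adhesion protein at endothelial contacts) one of 0.01 (SE 0.09). *Esam*, an adhesion molecule at tight junctions, was at -0.07 (SE 0.09), and *Tjp1*, the scaffold protein ZO-1, also at -0.07 (SE 0.12). The 4 intervals lay within 1.5-fold. Of the transcription factors, *Sox17* was at 0.09 (SE 0.12), *Sox18* at -0.11 (SE 0.15) and *Fli1* at 0.07 (SE 0.23).

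The other 8 surface and secreted genes did not pass an unadjusted p of 0.05. *Pltp* (phospholipid transfer protein) was at 0.29 (SE 0.22), *Vwf* (von Willebrand factor, a clotting protein stored in endothelium) at 0.28 (SE 0.32), *Pglyrp1* (a peptidoglycan recognition protein) at 0.22 (SE 0.16) and *Emcn* (endomucin, a sialoglycoprotein) at 0.19 (SE 0.15). *Egfl7* (a secreted endothelial factor) was at -0.20 (SE 0.12) and *Nos3* (endothelial nitric oxide synthase) was at -0.10 (SE 0.16). *Cd34* (a sialomucin of endothelium) and *Itm2a* (a membrane protein abundant in brain endothelium) were at -0.07 (SE 0.10) and -0.01 (SE 0.15). *Vwf* had the widest spread between mice among the endothelial genes, from 1.32 in control mouse 4 to 2.94 in control mouse 3.

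Of the 7 pericyte genes, 2 were higher and 5 lower after BaP, and the median log2 fold change was -0.04. *Abcc9* encodes SUR2, the regulatory subunit of the potassium channel that sets membrane potential in mural cells. Its log2 ratio was 1.63, 1.45, 1.89 and 1.29 in control mice 1 to 4 and 1.74, 2.09, 2.07 and 1.70 in BaP-exposed mice 1 to 4. BaP-exposed mice 2 and 3 exceeded all controls, whereas control mouse 3 exceeded the other BaP-exposed animals. On average *Abcc9* was higher by 0.34 (SE 0.15), with an adjusted p of 0.563 in limma and an exact permutation p of 0.114.

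*Kcnj8*, which encodes the pore of the same channel (Kir6.1), had a log2 fold change of -0.04 (SE 0.10, 95% interval -0.26 to 0.18). *Rgs5*, a regulator of G protein signaling that is abundant in pericytes, was higher by 0.28 (SE 0.14), with an exact permutation p of 0.171. The receptors *Pdgfrb*, through which PDGF-B recruits pericytes, and *Notch3* were each at -0.04 (SE 0.10). *Anpep* (aminopeptidase N) was at -0.13 (SE 0.14).

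*Vtn*, which encodes the matrix protein vitronectin, had the largest decrease of the 37 genes. Control mice 1 to 4 had log2 ratios of 4.76, 4.75, 5.28 and 4.84, and BaP-exposed mice 1 to 4 had 4.42, 4.58, 4.49 and 5.11. BaP-exposed mice 1, 2 and 3 lay below all controls, and mouse 4 lay above all controls but mouse 3. The log2 fold change was -0.26 (SE 0.17), with an adjusted p of 0.664 in limma and an exact permutation p of 0.314.

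**Figure D3:**
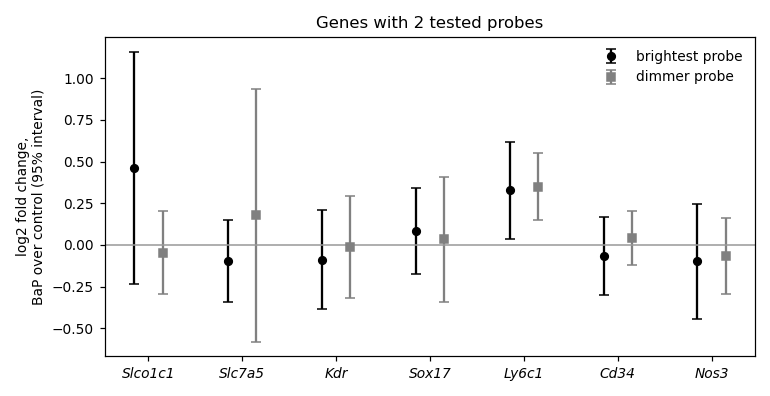
Log2 fold change with its 95% interval for the 7 genes with 2 tested probes, the brightest probe as a black circle and the dimmer one as a gray square. *Ly6c1* was higher on both probes (0.33 and 0.35), while *Slco1c1* was at 0.46 on one and -0.05 on the other.

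Of the 5 genes at an unadjusted p of 0.05, the single mice weighed differently. With each mouse left out in turn, the log2 fold change ranged from 0.24 to 0.43 for *Slco1a4*, from 0.24 to 0.42 for *Ly6c1*, from 0.21 to 0.35 for *Tek* and from 0.24 to 0.45 for *Abcc9*. The number of genes at that p went from 5 to 1 without BaP-exposed mouse 3, to 2 without BaP-exposed mouse 2 or control mouse 4, to 3 without control mouse 2 and to 8 without BaP-exposed mouse 1. *Slc2a1* was among them in each case. Of all named genes, 3.11%, 2.55%, 3.47%, 3.89% and 7.67% were higher at that p without BaP-exposed mouse 3, BaP-exposed mouse 2, control mouse 4, control mouse 2 and BaP-exposed mouse 1. Of the 5 genes without control mouse 1, 3 were higher and 2 lower (*Slc7a5* and *Egfl7*), and of the 5 without BaP-exposed mouse 4, 4 were higher and 1 lower (*Vtn*). Over all named genes, 5.14% were higher and 5.14% lower without control mouse 1, and 6.87% and 5.37% without BaP-exposed mouse 4. The median over the 37 genes was -0.01 without control mouse 4, against 0.08 with all mice.

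In the mice with agreeing labels, 4 of the 37 genes reached that p, of which *Slc2a1*, *Mfsd2a* and *Pglyrp1* were higher and *Flt1* lower, against 3.3% of all named genes higher and 4.39% lower. There *Slco1a4* differed by 0.28, *Ly6c1* by 0.25, *Tek* by 0.28 and *Abcc9* by 0.38. In the other slide row the differences were 0.43, 0.41, 0.23 and 0.29. There *Ly6c1* alone of the 37 genes passed, against 3.67% of all named genes higher and 3.12% lower. Grouped by source name, these genes were at -0.07, -0.08, 0.03 and 0.04.

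Markers of other cells of the tissue were read beside these genes. Each marker list was summarized per mouse as the median over its genes of the log2 ratio, centred on the gene's mean over the 8 mice. The 10 choroid plexus markers, all above background on every array, were at 0.18, -0.95, 0.49 and -1.38 in control mice 1 to 4 and at -1.85, 1.30, 1.77 and 0.64 in BaP-exposed mice 1 to 4. Their summed Cy5 signal ran from 41306 to 195270 in control mice and from 25125 to 511757 in BaP-exposed mice. BaP-exposed mice 2 and 3 were thus the richest in these markers and BaP-exposed mouse 1 and control mouse 4 the poorest, with overlapping groups. All 10 markers had a higher mean with BaP, at a median log2 fold change of 0.81, and for each of them the SD between mice exceeded the difference.

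The ratios of several transporters followed a like order. *Slc2a1* and the brighter *Slco1c1* probe were highest in BaP-exposed mouse 3 and, among controls, highest in mouse 3 and lowest in mouse 4, as the choroid plexus markers were. *Slco1c1* and *Slco1a4* are known to be expressed in the choroid plexus as well as in endothelium. BaP-exposed mouse 1, the poorest in these markers, was at -1.19 for *Slc2a1*, above all controls, and at 4.11 for *Slco1c1*, below control mice 1, 2 and 3. The part of choroid plexus tissue in the transporters' values was not tested.

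The 6 erythroid markers, which mark blood in the vessels, each had a lower mean in BaP-exposed mice, at log2 fold changes of -1.90 to -0.09. The adjusted threshold was passed by 2 of the 6. Their median per mouse was -0.61 to -0.16 with BaP against 0.28 to 0.53 in controls. Their summed Cy5 signal was 36580 to 51962 with BaP and 113425 to 138833 in control mice. *Hbb-bs* (a beta-globin) had a log2 fold change of -1.90 (SE 0.14, adjusted p = 0.00236 from limma) and *Alas2* (the erythroid enzyme of heme synthesis) one of -1.05 (SE 0.12, adjusted p = 0.0447 from limma). Both genes were lower without overlap over all 8 mice. In the 8 fits with a mouse left out, *Hbb-bs* passed the adjusted threshold in 8 and *Alas2* in 1. In the scanner's ratio the groups overlapped, at -0.26 (SE 0.34) for *Hbb-bs* and -0.40 (SE 0.30) for *Alas2*. Over all 24 alternatives, *Hbb-bs* missed the adjusted threshold in 5 and *Alas2* in 16.

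Between the groups the endothelial genes overlapped: their median per mouse was -0.08 to 0.14 in controls and -0.08 to 0.10 in BaP-exposed mice. For the pericyte genes the ranges were -0.07 to 0.20 and -0.08 to 0.08.

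For the barrier transporters the median per mouse was -0.36 to 0.07 in controls and -0.05 to 0.19 in BaP-exposed mice, which overlapped. The 4 tested smooth muscle markers (of 5) were each lower after BaP (median log2 fold change -0.33) and overlapped between the groups. Control mouse 3 was the highest of the 8 mice in the smooth muscle markers (0.65), in the pericyte genes (0.20) and in the endothelial genes (0.14). The fits without it gave these values: the median over all 37 genes was then 0.11, over endothelial genes 0.08 and over pericyte genes 0.02.

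The 8 meningeal fibroblast markers, all above background on every array, also varied between mice. Their median per mouse was 0.29, 0.02, 0.47 and -0.43 in control mice 1 to 4 and -0.59, -0.04, -0.16 and 0.42 in BaP-exposed mice 1 to 4. Their summed Cy5 signal was 56288 to 191115 in controls and 54815 to 207101 with BaP. Control mouse 3 and BaP-exposed mouse 4 were the highest of the 8, as they were for *Vtn* and *Vwf*. The part of meningeal tissue in these values was not tested. For the markers of astrocytes, microglia, oligodendrocytes and neurons, the medians per mouse ran from -0.26 to 0.32 and overlapped between the groups.

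**Figure D4:**
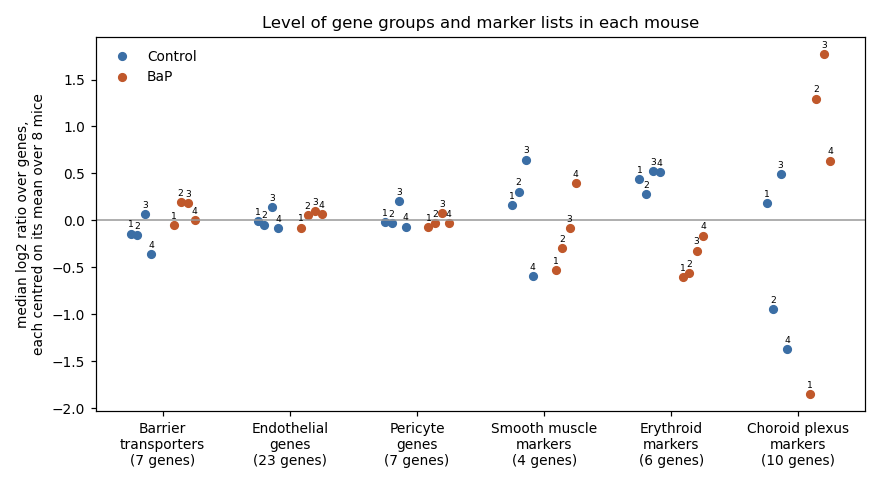
Median log2 ratio over the genes of each group or marker list in each mouse, every gene centred on its mean over the 8 mice, with control mice in blue and BaP-exposed mice in orange. The erythroid markers are apart (-0.61 to -0.16 against 0.28 to 0.53), the choroid plexus markers run from -1.85 to 1.77 with overlap, and the vessel genes overlap within -0.36 to 0.20.

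Lists of other genes of the same vessels were read in the same way (84 genes, 77 tested). At an unadjusted p of 0.05, 4 were higher with BaP (5.19% of 77) and 5 lower (6.49%), against 5.07% and 4.38% of all named genes, and 0 of the 77 passed the adjusted threshold in limma. Among 10 junction genes 8 were higher and 2 lower. *Cldn5* encodes claudin-5, the main sealing protein of the endothelial tight junction. Its log2 ratio was 5.37, 5.37, 5.39 and 5.25 in control mice 1 to 4 and 4.85, 4.87, 4.71 and 4.69 in BaP-exposed mice 1 to 4. The 2 groups were far apart against their spread, with SDs of 0.06 and 0.09 (n = 4).

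The log2 fold change of *Cldn5* was -0.57 (SE 0.08), with an adjusted p of 0.138 in limma and an exact permutation p of 0.0286. It was -0.51 in the mice with agreeing labels and -0.62 in the other slide row. Its reference signal was dim, from -0.25 to 0.19 log2 around the array's median Cy3 signal. The reference was also dim for *Slco1a4* (-0.62 to -0.16), *Tek* (-0.87 to -0.59), *Abcc9* (-0.83 to -0.35) and the brighter *Slco1c1* probe (-0.75 to -0.54). The size of the *Cldn5* difference depended on the processing: it was -0.46 at a normexp offset of 16 and -0.75 in Cy5 alone, both without overlap. Under median centring it was -0.27, where the median over all named genes was 0.21, and in the scanner's own ratio -0.11, both with overlap. *Ocln* (occludin), the other tight junction protein at that p, was higher by 0.53 (SE 0.20, adjusted p = 0.527 from limma) and overlapped on its brightest probe. It read 0.74, 0.68, 1.17 and 0.63 in control mice 1 to 4 and 0.91, 1.56, 1.80 and 1.06 in BaP-exposed mice 1 to 4. BaP-exposed mice 3 and 2 were highest, control mouse 3 the highest control and control mouse 4 the lowest control, as for the choroid plexus markers. BaP-exposed mouse 1, the poorest in those markers, lay above control mice 1, 2 and 4 for *Ocln*. The part of choroid plexus tissue in these values was not tested. A dimmer probe of *Ocln* was above background on 6 of the 8 arrays, 2 of control mice and 4 of BaP-exposed mice. It passed the filter through the group where it was higher, so its value gives no further support. It gave 0.29 (SE 0.11), with control mice at 0.23 to 0.72 and BaP-exposed mice at 0.74 to 0.88, without overlap.

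In the WNT programme that drives barrier formation (14 tested of 15), *Fzd4*, a receptor of WNT and norrin, was at 0.79 (SE 0.24, adjusted p = 0.498 from limma) and was the 1 gene at an unadjusted p of 0.05. It read 1.15, 0.65, 1.58 and 1.01 in control mice 1 to 4 and 1.34, 1.92, 2.50 and 1.79 in BaP-exposed mice 1 to 4. BaP-exposed mice 3, 2 and 4, in that order, were the highest of the 8, and mouse 3 the highest control, as for the choroid plexus markers. BaP-exposed mouse 1, the poorest of the 8 in those markers, lay above control mice 1, 2 and 4 for *Fzd4*. The part of choroid plexus tissue in the *Fzd4* values was not tested either. Of 19 tested genes of VEGF, angiopoietin, Notch and PDGF signaling (of 20), 8 were higher and 11 lower, and at that p *Pgf* was higher and *Vegfa* and *Angpt1* lower. *Vegfa*, the ligand of KDR and FLT1, had a log2 ratio of -0.68, -0.70, -0.89 and -0.72 in control mice and -1.16, -1.12, -1.12 and -0.90 in BaP-exposed mice. The groups nearly touched but did not overlap, at -0.33 (SE 0.09, adjusted p = 0.488 from limma), and a dimmer probe gave -0.13 (SE 0.22).

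*Pgf*, placental growth factor and a ligand of FLT1, was at -0.15, -0.13, -0.03 and -0.19 in control mice and 0.24, 0.15, -0.01 and 0.00 in BaP-exposed mice, a log2 fold change of 0.22 (SE 0.09, adjusted p = 0.537 from limma). Every BaP-exposed mouse exceeded the controls, mouse 3 by the least. *Angpt1*, the ligand of TIE2, was at -0.30 (SE 0.12, adjusted p = 0.550 from limma), with overlap.

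Of the other transporters and receptors of the barrier (11 tested of 13), *Insr*, the insulin receptor, was at 0.01, 0.07, 0.20 and 0.20 in control mice and 0.41, 0.64, 0.43 and 0.54 in BaP-exposed mice. The lowest BaP-exposed mouse lay well above the highest control. The log2 fold change was 0.39 (SE 0.09, adjusted p = 0.380 from limma), with 0.11 and 0.27 on its next 2 probes.

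In the list of endothelial activation genes (9 tested of 12), *Plat*, tissue plasminogen activator, was at -0.28, -0.04, -0.10 and -0.32 in control mice and -0.51, -0.45, -0.36 and -0.36 in BaP-exposed mice. The groups lay apart by a small gap, at -0.24 (SE 0.09, adjusted p = 0.529 from limma). *Col4a1*, a collagen of the basement membrane, was the 1 of 14 mural and basement membrane genes at that p, with -0.38 (SE 0.16, adjusted p = 0.549 from limma) and overlapping groups.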

How the data were processed

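The authors deposited spot median intensity values of both channels with background levels, a scanner log10 ratio and 0/1 marks per spot, and a table of log2 ratios that the methods describe as LOWESS-normalized. Background was corrected with normexp (offset 50; limma 3.58.1, R 4.3.3). Spots of controls were dropped, outlier spots set to missing, ratios normalized by loess within each array, and spots of a probe averaged. A probe was tested with lmFit and eBayes if its Cy5 signal was well above background on 4 or more of 8 arrays (32624 of 55681). The brightest tested probe in Cy5 stood for a gene. Probes were named through RefSeq accessions and a GRCm38.p6 table (27229 of 28685 named). Exact tests used all 70 assignments of the mice, or those of the mice with a value. Figures were drawn in matplotlib 3.10.9 and summaries made in pandas 2.3.3.

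The fit was tested on simulated data. The members and all gene lists were chosen with earlier results of these data known. Members with an unadjusted p of 0.05 or less, or without overlap, are given per mouse, and related genes that meet both likewise. *Vtn*, *Slco1c1*, *Ocln*, *Fzd4*, *Angpt1* and *Col4a1* were given values after these were seen. The 24 alternatives covered background, scaling, filters, test, blocks, probes, labels and each mouse left out. The study's methods name 5 mice per group, of which 4 per group are on the arrays.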

Additional observations from a re-analysis of the deposited data

Results flagged for a closer look

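In 87 groups of 4 mice, 5 held a mouse far from the other 3, where chance flags about 1 in 20 groups, or 4.35 here. *Abcg2* stood out in BaP-exposed mouse 1, at a log2 ratio of -0.28 against 0.17 to 0.21, a distance that takes 0.905 of the whole range of the group. *Pecam1* stood out in control mouse 3, at 0.49 against 0.20 to 0.24 (0.849), and *Eng* in control mouse 4, at -0.39 against -0.29 to -0.28 (0.902). *Vtn* stood out in control mouse 3, at 5.28 against 4.75 to 4.84 (0.842), and *Vegfa* in the same mouse, at -0.89 against -0.72 to -0.68 (0.851).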

How the results depend on the processing

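In 24 alternatives, 0 of the member genes passed the adjusted threshold, and *Slc2a1* kept its direction in all 24. Probes called over the whole array (3) numbered 0 in the scanner's ratio, the gene-wise F test, the second slide row, the mice with agreeing labels and the groups by source name, 5 without a filter and 6 in Cy5 alone. Members at an unadjusted p of 0.05 (5) numbered 3 at a normexp offset of 16, 9 under median centring and 1 under the F test or in the second slide row. Over all named genes, 4.44%, 22.5%, 4.7% and 3.67% were higher at that p in these settings. The shares lower were 3.96%, 0.278%, 3.98% and 3.12%. Members without overlap (1) numbered 3 in the scanner's ratio, 5 under median centring, 5 in the authors' table, and 2 in Cy5 alone or with the mean of a gene's probes. Over all named genes, 3.3%, 10%, 2.93%, 3.28% and 2.89% were higher without overlap in these settings.

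Median centring moved the median of all named genes to 0.21. The medians became 0.22 over all members, 0.37 over barrier transporters, 0.22 over endothelial and 0.21 over pericyte genes, and *Plat*, at 0.0277, was above 0 but below that shift. There 22.5% of all named genes were higher at an unadjusted p of 0.05. By source name, 3 members (2 higher, 1 lower) passed and 4 (3 higher, 1 lower) did not overlap, where 2.39% of all named genes were higher and 2.1% lower at that p, and 1.74% and 0.894% without overlap. The medians were then -0.0749 for barrier transporters and -0.0229 for endothelial genes, and *Slco1a4* (-0.0749), *Ly6c1* (-0.0819), *Cldn5* (0.0542) and *Alas2* (0.00935) turned. With each mouse left out, probes called ranged from 1 to 3, members at that p from 1 to 8 and members without overlap from 1 to 4. Over all named genes, 2.55% to 7.67% were then higher and 2.81% to 5.37% lower at that p. The shares without overlap were 3.32% to 6.41% higher and 3.35% to 5.34% lower. The pericyte median ran from -0.10 to 0.02 in those fits. The cause of these changes was not tested.

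The deviations of same-numbered mice had correlations of -0.35, 0.03, -0.01 and -0.01, where differently numbered mice had -0.31 to 0.34. These correlations are too few to show whether the numbers pair the mice. With the replicate block, 5 members passed the unadjusted p, with *Rgs5* in place of *Ly6c1*, and 3 probes were called. In that fit, 4.53% of all named genes were higher at that p and 3.39% lower. The SE of *Slc2a1* was 0.10 with the block against 0.14 without it, and that of *Ly6c1* 0.14 against 0.13.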
